A study of Homo sapiens with 6 samples.

Results

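Solute carrier (SLC) genes encode membrane proteins that move small molecules across the plasma membrane and the membranes of organelles. They were taken here as every row whose symbol has the form SLC, family number, letter, member number, which gave 130 of the 7682 genes in the table: 30 of the SLC25 family and 100 of other families. Of the 130, 96 passed a floor on total RNA (24 SLC25 genes and 72 others) and could be tested, among 6064 genes tested in all. The other 34 lay below the floor and are described by their values only. The symbol rule also caught 6 genes that are not carriers themselves, and these were kept and are described on their own.

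The cells were HEK293, a human embryonic kidney line, either mock transfected or transfected with siRNA against MOV10, an RNA helicase that binds mRNA. In both conditions the cells took up 4-thiouridine (4sU), a uridine analogue, at 700 µM for 60 min, which marks RNA made in that time, and poly(A)+ RNA was sequenced from total RNA, from the labelled fraction held on streptavidin beads and from the unlabelled flow-through. The table holds 2 replicate columns for each of these 6 groups, and 4 half-life columns, 2 for mock and 2 for siRNA, that the authors computed. The labels call the controls mock transfected and name no control siRNA. Nothing in the sources used here says that replicates 1 and 2 were separate cultures, so a p-value here reflects column-to-column spread, which may be technical. The expression values are a normalised signal with no unit named and no value below 1.00. The depth of the libraries is unknown, no counting interval can be given, and levels were compared between columns of 1 gene and not between genes.

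Most SLC25 proteins sit in the inner mitochondrial membrane, where they exchange nucleotides, phosphate, keto acids, amino acids and cofactors between the matrix and the cytosol. The other families work mainly at the plasma membrane, the Golgi, the endoplasmic reticulum and lysosomes, and carry amino acids, sugars, metals, ions, vitamins and nucleotide sugars. A labelling experiment reads the 2 sides of mRNA turnover: the labelled fraction holds RNA made during the pulse, the flow-through holds RNA made before it, and the half-life is derived from their proportions.

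MOV10 had total RNA of 13.1 and 14.6 in mock and 3.53 and 3.64 in siRNA, 3.86-fold lower, so the depletion was seen in both siRNA columns. UPF1, a helicase of mRNA surveillance, had 25.2 and 30.8 in mock and 30.8 and 30.6 in siRNA (adjusted p = 0.165). Of 9 genes listed as marks of HEK293 cells, 2 were in the table, NEFL (mean total RNA 23.3 in mock and 23.96 in siRNA) and VIM (233 and 214). None of 16 markers of blood, fibroblasts, endothelium, hepatocytes or proximal tubule was in the table. In bulk RNA, fewer cells of a type and less RNA per cell cannot be told apart.

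All changes below are differences of mean log2 values, siRNA minus mock, relative to the median gene of each column. Half-lives entered as log2 minutes and RNA as log2(value + 1), which understates the change of low genes. A gene was called changed where limma gave an adjusted p under 0.05 over the 6064 genes. Before this centring, the median gene stood 0.20 higher in half-life and 0.14 higher in labelled RNA in siRNA than in mock, while total RNA stood at -0.01 and flow-through RNA at 0.02. The half-life shift was not seen in recomputed half-lives, whose medians over the genes tested were 667 and 691 min in mock and 647 and 608 min in siRNA.

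In mock cells, SLC25 mRNAs and those of the other families had nearly the same typical half-life. The median of the 24 SLC25 genes was 829 min in mock column 1 and 899.5 min in mock column 2, against 809.7 and 908 min for the 72 others. After siRNA the SLC25 medians were 802 and 1071 min and the others 802 and 1078 min. The ratio of the SLC25 median to the other median was 1.02, 0.991, 1.00 and 0.993 in the 4 columns, so neither set was higher throughout. As deposited, all genes tested had medians of 742, 809.6, 764 and 1029.6 min, below both sets in every column. The spread within the sets was wide: in mock column 1 the middle 50% of SLC25 half-lives ran from 535 to 1092 min and that of the others from 501 to 1162 min. The sets stood further apart under other settings. With a floor of 20 the deposited mock medians were 1056 min for SLC25 and 853 min for the others. With half-lives recomputed by 1 rule for all columns, the mock medians were 786 and 657 min. The recomputed medians of the others were 643, 686, 616 and 574 min in the 4 columns. All genes tested had 667, 691, 647 and 608 min, above the others in every column. SLC25 genes had 765, 807, 688 and 618 min, above all genes in every column.

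**Figure D1:**
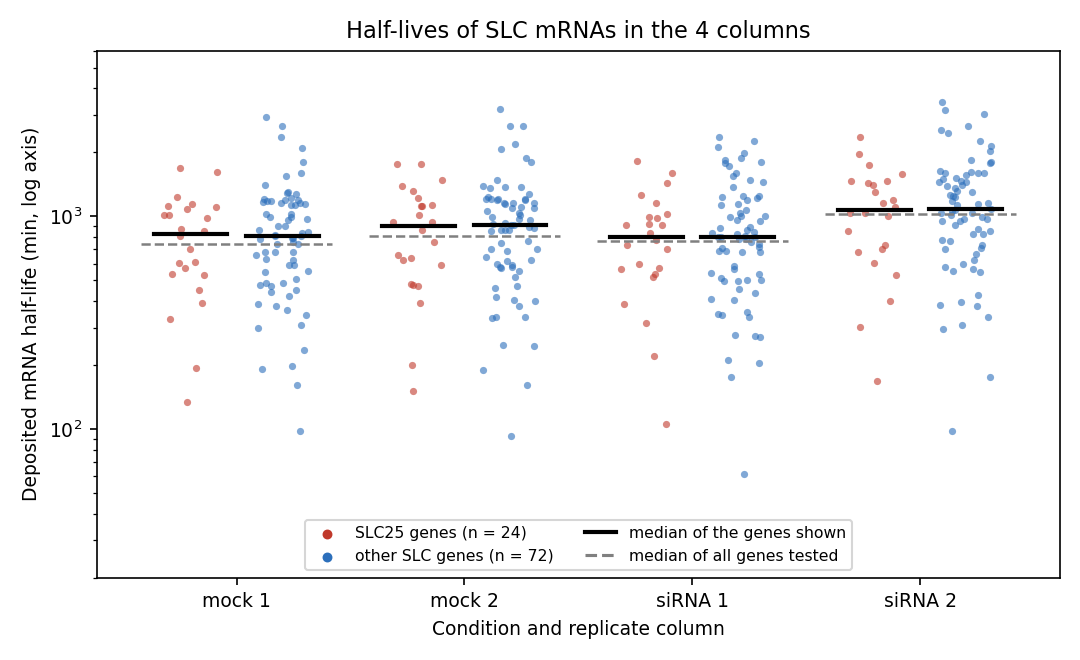
Deposited half-life (min, log axis) of each SLC gene past the floor in the 2 mock and 2 siRNA columns, with 24 SLC25 genes in red and 72 others in blue; black bars are the medians of the genes shown and grey dashed lines the medians of all 6064 genes. The black bars of both sets lie close together in each column, and siRNA column 2 stands higher for all 3 sets.

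The longest-lived SLC25 mRNAs were those of SLC25A39, which carries glutathione into mitochondria, with 1679.9 and 1768 min in mock, SLC25A46, an outer-membrane protein of mitochondrial dynamics, with 1610 and 1482 min, and SLC25A14, an uncoupling-type carrier, with 1086 and 1761 min. The mock columns of SLC25A14 differed by more than those of its neighbours, and its place in the order is therefore less certain. At the short end stood SLC25A25, a calcium-regulated carrier of ATP-Mg and phosphate, with 135 and 152 min. SLC25A28, a mitochondrial iron importer, had 194 and 199.9 min. Both of these short-lived mRNAs were below the lower quartile of the family in both mock columns.

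Outside SLC25 the range was wider still. SLC38A10 had 2943 and 2176 min in mock, SLC47A1, an exporter of organic cations, 2095 and 3181 min, and SLC4A2, a chloride and bicarbonate exchanger, 2655 and 2652 min. The order of these 3 was not settled, because SLC38A10 and SLC47A1 changed places between the mock columns. SLC30A1, the zinc exporter of the plasma membrane, had the shortest half-life of all SLC genes tested, 98.3 and 92.6 min. SLC15A4, a peptide and histidine carrier of endolysosomes, had 160.5 and 160.6 min, and SLC7A5P1, a pseudogene, 199 and 189 min.

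Few SLC mRNAs were called changed in half-life after MOV10 siRNA. Of the 96 tested, 4 had a shorter half-life (4.17%) and none a longer one, against a background of 4.27% shorter and 1.88% longer over all genes tested. At an unadjusted p under 0.05 there were 25 of 96. The median change was -0.03 over the SLC genes and 0.00 over all genes, and 93 of the 96 lay between -0.5 and 0.5. The 4 were SLC35F1, SLC35B2, SLC25A4 and SLC25A10, 2 of the SLC25 family and 2 of the SLC35 family of the Golgi and related membranes. The share was near the background, so the count says nothing about SLC genes as a set. In simulated half-lives the test recovered 22% of changes of 0.5 log2 units. The simulated spread was that of the mock columns before centring, so this share may be too low for the centred values tested. A gene without a call is still not shown to be unchanged.

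SLC35F1, a carrier whose substrate is not established, had a half-life of 546 and 621 min in the mock columns and of 335 and 425 min in the siRNA columns. Both siRNA columns were below both mock columns, and the change was -0.82 ± 0.09 (SE, adjusted p = 0.00707), the largest decrease among SLC genes. Its total RNA was 9.04 and 9.33 in mock and 6.47 and 8.59 in siRNA, a difference of -0.25 that did not pass the threshold (adjusted p = 0.121). Its flow-through RNA fell from 9.10 and 11.4 to 5.79 and 6.01, a change of -0.68, while labelled RNA was level (0.00, adjusted p = 0.986).

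SLC35B2 moves the sulphate donor PAPS into the Golgi. Mock half-lives were 441 and 458 min and siRNA half-lives 276 and 379 min, with no overlap, a change of -0.67 ± 0.09 (adjusted p = 0.011). Total RNA fell from 22.4 and 25.9 to 15.1 and 15.5, 1.57-fold lower (adjusted p = 9.84e-05). Flow-through RNA fell 1.97-fold, from 34.1 and 32.4 to 17.1 and 16.7. Labelled RNA was 22.2 and 20.8 in mock and 21.1 and 19.7 in siRNA (adjusted p = 0.0826).

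SLC25A4 is 1 of the ADP/ATP carriers that exchange nucleotides across the inner membrane. Mock half-lives were 1017 and 1117 min and siRNA half-lives 699 and 1038 min. As deposited the conditions overlapped, in siRNA column 2, where the median gene stood at 1029.6 min. Set against the median gene of its column it stood at 1.37 and 1.38 in mock and at 0.915 and 1.01 in siRNA, which do not overlap, and the change was -0.52 ± 0.09 (adjusted p = 0.0291). Total RNA fell 1.62-fold, from 21.7 and 26.7 to 15.9 and 14.03 (adjusted p = 0.000175).

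SLC25A10 exchanges dicarboxylates for phosphate. Its half-life of 1228 and 1393 min in mock cells and 982 and 1304 min in siRNA also overlapped as deposited, and relative to the median gene it went from 1.65 and 1.72 to 1.28 and 1.27. The change of -0.40 ± 0.09 was only just past the threshold (adjusted p = 0.0496). Its total RNA fell 1.33-fold and its flow-through RNA 1.62-fold.

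The 4 calls were not equally firm, and the count was 1 without mock column 1, 1 without mock column 2 and 2 without siRNA column 1. SLC35F1 was called without any 1 of the columns in turn, with adjusted p from 0.0212 to 0.0461. SLC35B2 was not called without mock column 1 (adjusted p = 0.083) or mock column 2 (0.0533). SLC25A4 was not called without mock column 1 (0.133), mock column 2 (0.128) or siRNA column 1 (0.0934), and SLC25A10 was lost whichever column was left out (0.0962 to 0.216). With no centring none of the 4 was called, although each kept a negative change, from -0.21 for SLC25A10 to -0.63 for SLC35F1.

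**Figure D2:**
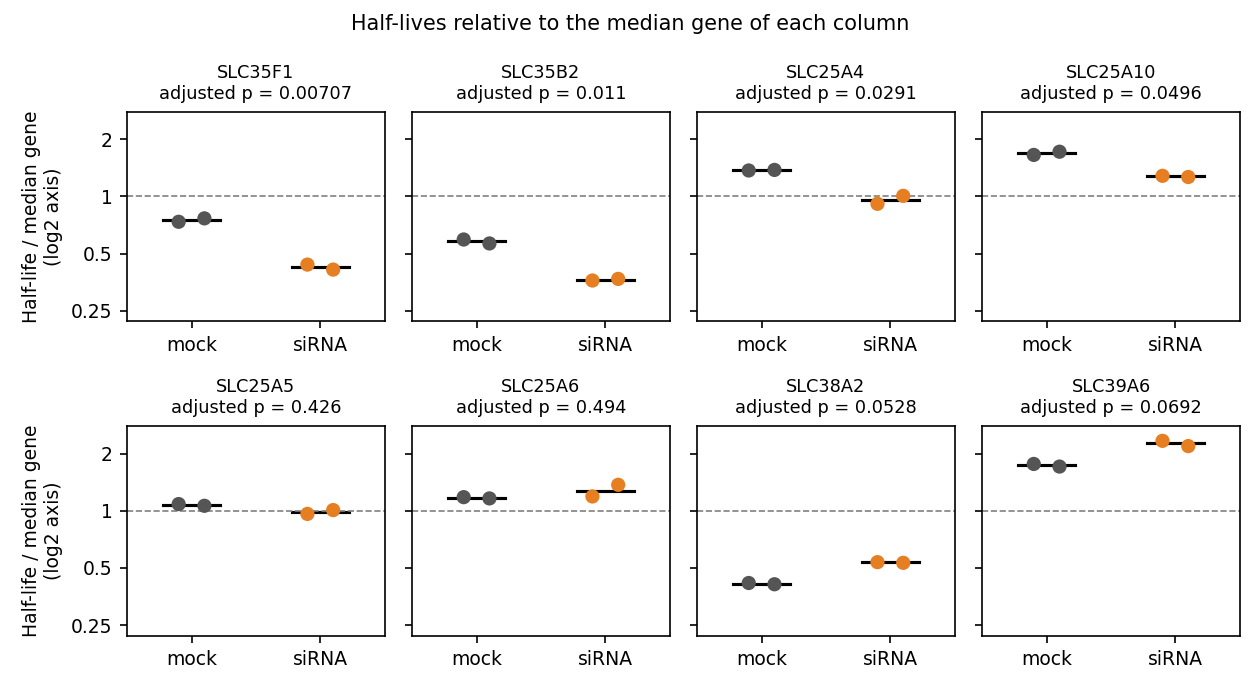
Half-life divided by the median half-life of all genes tested in the same column (log2 axis), for the 4 SLC genes called in half-life (top row) and for 4 that were not (bottom row); points are the 2 mock columns (grey) and 2 siRNA columns (orange), and black bars are geometric means. SLC35F1 went from 0.736 and 0.767 to 0.438 and 0.412, and SLC38A2 and SLC39A6 lay higher in siRNA without passing the adjusted threshold.

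None of the largest half-life increases by estimate passed the test. SLC38A2, a sodium-coupled carrier of neutral amino acids, had 309 and 332 min in mock cells and 409.7 and 548 min in siRNA, a difference of 0.37 ± 0.08 (adjusted p = 0.0528). SLC39A6, a zinc importer, had 1308 and 1382 min in mock cells and 1782 and 2253 min in siRNA, a difference of 0.38 ± 0.10 (adjusted p = 0.0692). SLC35A3, the carrier of UDP-N-acetylglucosamine, had the largest estimate, 0.47, but its mock columns of 1156 and 857 min were far apart (adjusted p = 0.217). SLC35A1 followed with 0.43 (adjusted p = 0.083). SLC19A2, the thiamine carrier, had 345 and 406 min in mock cells and 544 and 596 min in siRNA, a difference of 0.41 (adjusted p = 0.0954). As deposited, SLC38A2, SLC39A6, SLC35A1 and SLC19A2 had both siRNA columns above both mock columns. The median gene also stood higher in siRNA column 2, at 1029.6 min, than in either mock column, at 742 and 809.6 min. How many of all genes had both siRNA columns above both mock columns was not counted. SLC38A2 and SLC39A6 were called where only genes with total RNA of 20 or more were tested (adjusted p = 0.0368 and 0.0435). SLC38A2 was also called with recomputed half-lives (0.44, adjusted p = 0.0266).

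More SLC genes were called changed in RNA level than in half-life. In total RNA 20 were lower (20.8%) and 18 higher (18.8%), against 14.3% lower and 12.9% higher over all genes tested. In labelled RNA 17 were lower (17.7%) and 2 higher (2.08%), against 11.5% and 9.88%, and without centring the split was 9 lower and 4 higher. In flow-through RNA 43 were lower (44.8%) and 13 higher (13.5%), against 26.8% and 31.7%. Across total, labelled and flow-through RNA, 69 of the 96 genes were called at least once. The median change was 0.04 in total RNA, -0.14 in labelled and -0.13 in flow-through RNA, against 0.01, 0.00 and 0.03 over all genes.

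The SLC25 genes and the others differed in the direction of their total RNA calls. Of the 24 SLC25 genes 7 fell in total RNA (29.2%) and none rose, with 10 at an unadjusted p under 0.05. Of the 72 others 13 fell (18.1%) and 18 rose (25%), and of all genes tested 14.3% fell and 12.9% rose. The SLC25 calls other than those of SLC25A4 and SLC25A5 depended on single columns, as given below. The median change was nevertheless close to 0 in both sets, -0.03 for SLC25 and 0.06 for the others. In flow-through RNA 14 SLC25 genes fell (58.3%) and 3 rose (12.5%), and 29 of the others fell (40.3%) and 10 rose (13.9%). The medians there were -0.24 for SLC25 and -0.11 for the others. In labelled RNA 6 SLC25 genes fell and 1 rose, 11 of the others fell and 1 rose, and both medians were -0.14. In half-life the medians were -0.08 and -0.03, and without centring they were 0.12 and 0.17. The difference between the 2 sets was not tested, since genes are not replicates. SLC25 genes were also the more GC-rich set, and total RNA calls split by coding GC content are given below.

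Total RNA calls depended on single columns. Without mock column 2, 10 of the SLC genes were lower and without siRNA column 1, 11 were, in place of 20. Without siRNA column 1, 9 were higher in place of 18. Of all 38 calls in total RNA, 13 held without each column in turn: SLC30A1, SLC35E3, SLC25A4, SLC35B2, SLC44A2, SLC6A8, SLC25A5 and SLC35C2 among those that fell, and SLC39A6, SLC30A7, SLC16A9, SLC5A6 and SLC38A2 among those that rose. Every other total RNA call given here was lost without at least 1 column.

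**Figure D3:**
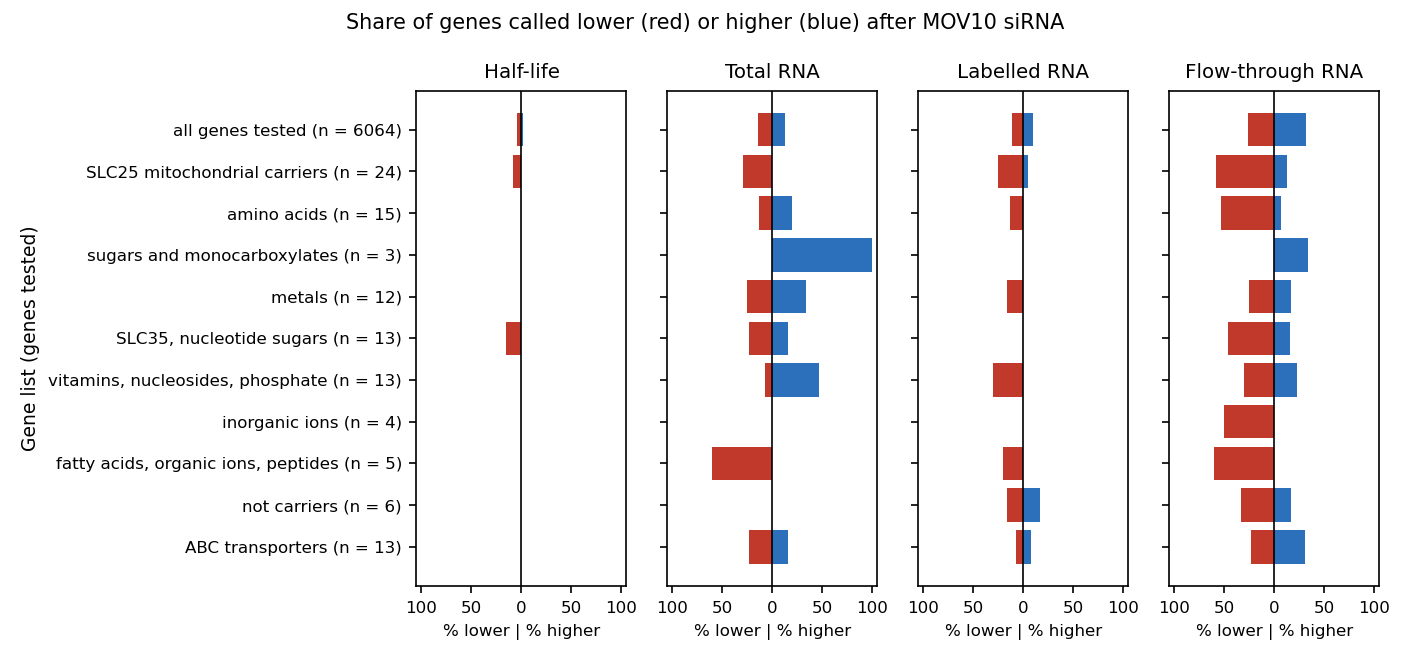
Share of the genes tested that were called lower (red, to the left) or higher (blue, to the right) after MOV10 siRNA in half-life, total, labelled and flow-through RNA, by the substrate of the carrier; n is the number past the floor, and lists of 3 to 6 genes give coarse shares. SLC6A8, the creatine carrier, is in no list shown. Flow-through bars of the SLC25 list reach 58.3% lower against 26.8% for all genes tested, and its total RNA bar has no blue side.

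SLC25A5 and SLC25A6 are the other ADP/ATP carriers tested. SLC25A5, the form of dividing cells, had total RNA of 445 and 488 in mock and 348 and 342 in siRNA, 1.35-fold lower (adjusted p = 0.000103). Its labelled RNA fell as well, from 213 and 197 to 187 and 175 (change -0.31, adjusted p = 0.0252), and its half-life difference was -0.12 (adjusted p = 0.426). SLC25A6 had total RNA of 258 and 322 in mock and 269.97 and 264 in siRNA, which overlap (adjusted p = 0.387), and a half-life difference of 0.12 (adjusted p = 0.494). SLC25A4 was the 1 called in half-life, a call lost without any 1 of 3 columns as given above, and its labelled RNA did not pass (12.4 and 11.9 in mock, 12.02 and 12.01 in siRNA). Whether these genes differ from each other was not tested. All 3 fell in flow-through RNA, by 0.62, 0.50 and 0.20 for SLC25A4, SLC25A5 and SLC25A6.

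The 3 coding sequences are alike, each 894 bases long in GENCODE v29. SLC25A4 matched SLC25A5 at 77.2% of positions and SLC25A6 at 77.9%, and SLC25A5 matched SLC25A6 at 78.7%. The longest identical stretch of any pair was 29 bases, shorter than a 100-cycle read, but no label or header says how reads that fit several genes were counted. SLC25A3, the phosphate carrier that works beside them, had total RNA of 316 and 336 in mock and 350.3 and 329 in siRNA, and a half-life difference of 0.02 (adjusted p = 0.907). It passed in none of the 4 measures.

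Values follow for 4 carriers of the malate, citrate and aspartate routes, picked after the values were seen. SLC25A11, which exchanges oxoglutarate for malate, fell in all 3 kinds of RNA: total RNA went from 83.4 and 94.5 to 67.9 and 72.1 (change -0.32, adjusted p = 0.00375), and labelled RNA from 31.6 and 30.4 to 23.9 and 23.7 (-0.50). Its half-life of 977 and 1017 min in mock cells and 916 and 1198 min in siRNA did not pass (adjusted p = 0.436). SLC25A1, the citrate carrier, was level in total RNA (93.4 and 108 in mock, 107 and 102 in siRNA) and fell in flow-through RNA only (-0.26). SLC25A13, an aspartate and glutamate carrier, passed in no measure. SLC25A12, of the same substrates, had the largest half-life estimate of the family, 0.33 (612 and 659 min in mock, 831 and 1006 min in siRNA, adjusted p = 0.0901), and its flow-through RNA rose from 7.87 and 7.57 to 9.95 and 10.3.

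Of the SLC25 carriers of amino acids and cofactors, SLC25A15, the ornithine carrier of the urea cycle, rose in flow-through RNA (0.24). SLC25A38, which carries glycine for haem synthesis, fell in total RNA from 22.5 and 23.6 to 19.9 and 19.1 (change -0.21, adjusted p = 0.0434). SLC25A39 fell in total RNA from 63.5 and 77.0 to 55.4 and 58.2, and in labelled and flow-through RNA. SLC25A29, a carrier of basic amino acids, and SLC25A32, linked to folate and FAD, fell in labelled RNA (-0.42 and -0.39) and in flow-through RNA (-0.56 and -0.37) while total RNA did not pass. The iron importers SLC25A28 and SLC25A37 had half-life differences of 0.20 and 0.29, neither past the threshold. The short-lived SLC25A25 fell in total RNA from 10.2 and 11.99 to 8.92 and 9.15 (adjusted p = 0.0477).

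Among 15 amino acid transporters none was called in half-life in the main test, and SLC38A2 was called under other settings, as given above. In total RNA 2 fell (13.3%) and 3 rose (20%), against 14.3% and 12.9% of all genes tested. In flow-through RNA 8 fell (53.3%) and 1 rose (6.67%), against 26.8% and 31.7%. SLC1A5, the glutamine carrier, was level in total RNA, 228 and 271 in mock and 253 and 249 in siRNA, and fell in flow-through RNA from 357 and 351 to 276 and 269 (-0.36). SLC3A2, the heavy chain that takes several SLC7 carriers to the cell surface, had a half-life of 299 and 336 min in mock cells and 274 and 394 min in siRNA, and total RNA of 271 and 299 against 259 and 259. Its partner SLC7A5, a carrier of large neutral amino acids, rose in total RNA from 91.5 and 114 to 119 and 121 (0.25, adjusted p = 0.0273). SLC43A1 and SLC43A2, carriers of the same substrates, did not rise: SLC43A2 fell in total RNA from 7.95 and 8.57 to 6.02 and 6.26, and SLC43A1 had the lowest half-life estimate of the list, -0.35 (821 and 1036 min in mock, 707 and 969 min in siRNA, adjusted p = 0.096).

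SLC38A2 changed in opposite directions in new and older RNA. Its total RNA rose from 164 and 168 to 209 and 205, 1.25-fold higher (0.34, adjusted p = 0.000829). Its labelled RNA fell from 235 and 236 to 209 and 218 (-0.28, adjusted p = 0.0416), and its flow-through RNA rose (0.18, adjusted p = 0.00828). It was the 1 gene called in opposite directions in labelled and flow-through RNA, out of 16 SLC genes called in both.

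Of 16 zinc, copper, iron, manganese and magnesium transporters, 12 were tested. In total RNA 3 fell (25%) and 4 rose (33.3%), against 14.3% and 12.9% of all genes tested, and none was called in half-life. SLC30A1 fell most of all SLC genes: total RNA went from 9.04 and 10.1 to 5.30 and 4.92, 1.88-fold lower (-0.77 ± 0.09, adjusted p = 3.89e-05). Its labelled RNA fell from 29.5 and 31.6 to 22.04 and 19.1 (-0.69) and its flow-through RNA from 8.504 and 8.23 to 3.02 and 3.55, 2.55-fold lower. Its half-life of 98.3 and 92.6 min in mock cells and 61.2 and 98.2 min in siRNA did not pass (-0.49, adjusted p = 0.0784). SLC30A7, a zinc carrier of the Golgi, rose in total RNA from 8.69 and 10.3 to 13.3 and 13.99, 1.44-fold higher (adjusted p = 0.0008). SLC39A6 rose in total RNA from 22.8 and 21.7 to 32.7 and 31.1, also 1.44-fold (adjusted p = 0.000251), and in flow-through RNA from 31.1 and 28.6 to 43.2 and 40.8, while labelled RNA did not pass (adjusted p = 0.545). SLC30A exporters and SLC39A importers thus each held genes in both directions: SLC30A5 and SLC39A7 fell in total RNA (-0.27 and -0.26), and SLC39A8 and SLC39A3 rose (0.33 and 0.28).

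The SLC35 family held 13 tested genes of 14. Over all 13, 2 had shorter half-lives (15.4%, against 4.27% of all genes tested), SLC35B2 and SLC35F1. In total RNA 3 fell (23.1%), SLC35B2 among them, and 2 rose (15.4%), against 14.3% and 12.9%. None passed in labelled RNA, where 11.5% of all genes tested fell and 9.88% rose. In flow-through RNA 6 fell (46.2%), SLC35B2 and SLC35F1 included, and 2 rose (15.4%), against 26.8% and 31.7%. SLC35E3, whose substrate is not established, fell in total RNA from 10.7 and 11.3 to 6.48 and 6.43, 1.71-fold lower (adjusted p = 7.58e-05). Its half-life of 963 and 969.5 min in mock cells and 683 and 1034 min in siRNA did not pass (-0.40, adjusted p = 0.0716), and with recomputed half-lives it did (adjusted p = 0.0496). SLC35C2, linked to fucose addition, fell in total RNA from 30.5 and 31.97 to 24.03 and 24.2. SLC35A1, the carrier of CMP-sialic acid, rose in total RNA from 13.3 and 11.99 to 15.6 and 16.4 (0.34, adjusted p = 0.0124) and in flow-through RNA from 16.2 and 17.7 to 22.4 and 23.99. The half-life of this mRNA came to 807 and 877 min in mock cells and 1243 and 1357 min in siRNA (0.43, adjusted p = 0.083), and it was called without siRNA column 2 (0.58, adjusted p = 0.0457). SLC35B4, a carrier of UDP-xylose, rose in total RNA from 14.8 and 15.1 to 19.5 and 18.5.

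Many of the SLC35 mRNAs carry a short sequence in the 3′ UTR that an earlier search of these same data had singled out, TACTGCA, so its link to shorter half-lives here is no independent evidence. On the sense strand it was found in the annotated 3′ UTR of 16 of 94 SLC genes (17%), against 535 of 5562 genes (9.62%). It was in 6 of 12 SLC35 genes with an annotated UTR, in 15 of 70 SLC genes outside SLC25 and in 1 of 24 SLC25 genes, SLC25A13. A longer UTR gives more room for a match. Median UTR lengths were 1188 bases for SLC genes and 953 for all genes. They were 1244 for SLC35, 1415.5 outside SLC25 and 867.5 for SLC25. What part length has in these shares was not tested. Over all genes TACTGCA was in 82 of 246 with a shorter half-life (33.3%) and in 2 of 101 with a longer one (1.98%). Sites from 7 genes are shown with up to 11 bases on each side (GENCODE v29 transcripts, GRCh38) because they come from mRNAs that went different ways; capitals mark the 7 bases. SLC35F1 and SLC35B2 had shorter half-lives:
SLC35F1: gacccagagaaTACTGCAggatcctgata
SLC35B2: ttaaattaaatTACTGCA
In SLC35B2 the site is the last 7 bases of the annotated UTR of 600 bases (position 594 onwards). SLC35E3 and SLC35C2 fell in total RNA without a call in half-life:
SLC35E3: tgctgttactgTACTGCAaatatgctgtg
SLC35C2: tgtttactgagTACTGCAttctggagacc
SLC30A7 rose in total RNA, SLC35A3 had the largest half-life increase by estimate, and SLC25A13 passed in no measure:
SLC30A7: aatctatgattTACTGCAgtagtatgtgc
SLC35A3: cgatctcggctTACTGCAacctcccactc
SLC25A13: ctttttgtgggTACTGCAgtaaagaacat
SLC genes with the sequence went both ways. Of the 16, 9 had a half-life change below that of the median gene and 7 above it, and the median change was -0.03 with the sequence and -0.03 without it. Neither SLC25A4 nor SLC25A10 carried it in the annotated 3′ UTR. A match is a string in an annotated window and says nothing of what binds there.

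Of 16 vitamin, nucleoside, choline and phosphate transporters, 13 were tested. In total RNA 6 rose (46.2%) and 1 fell (7.69%), against 12.9% and 14.3% of all genes tested. Of the 5 named next that rose, SLC5A6 alone kept its call without each column in turn, and SLC48A1, SLC20A2, SLC37A4 and SLC37A3 did not. SLC5A6, the carrier of biotin and pantothenate, rose from 13.3 and 15.8 to 19.6 and 18.4, 1.30-fold higher (adjusted p = 0.00342). SLC48A1, a haem carrier, rose from 6.60 and 6.89 to 9.20 and 8.78 (0.39), and SLC20A2, a phosphate importer, from 8.296 and 8.996 to 11.04 and 11.6 (0.37). SLC37A4, which takes glucose-6-phosphate into the endoplasmic reticulum, rose from 29.1 and 31.6 to 40.8 and 36.3, and SLC37A3 of the same family from 14.6 and 14.6 to 19.96 and 18.2. SLC44A2, a choline carrier, was the gene that fell, from 14.4 and 16.4 to 9.88 and 10.7, 1.501-fold lower (-0.52, adjusted p = 0.000498), with labelled RNA down as well (-0.47) and a half-life difference of -0.28 (adjusted p = 0.17). The folate carrier SLC19A1 and the thiamine carrier SLC19A2 both fell in labelled RNA (-0.57 and -0.48). Flow-through RNA went from 42.6 and 40.7 to 21.7 and 22.7 for SLC19A1 and from 11.7 and 11.9 to 11.3 and 11.4 for SLC19A2.

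Of 11 sugar and monocarboxylate transporters only 3 passed the floor, all of the SLC16 family. All 3 rose in total RNA, where 12.9% of all genes tested rose. SLC16A1, the main lactate and pyruvate carrier, went from 72.6 and 73.1 to 87.8 and 87.5 (0.28, adjusted p = 0.00511). SLC16A9 went from 6.21 and 6.15 to 8.30 and 8.22, 1.34-fold higher, and SLC16A10, a carrier of aromatic amino acids, from 7.88 and 7.57 to 9.99 and 8.99. None of them passed in half-life (estimates 0.21, 0.12 and 0.07) or in labelled RNA. No SLC2 carrier, the family of the glucose transporters, passed the floor.

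The remaining lists were small. Of 5 tested carriers of fatty acids, organic ions and peptides, 3 fell in total RNA (60%, against 14.3% of all genes tested). They were SLC27A4, which takes up long-chain fatty acids (8.24 and 9.49 to 6.55 and 6.36), SLC47A1 (7.05 and 7.56 to 5.48 and 5.26) and SLC15A4 (6.60 and 7.85 to 5.13 and 5.56). SLC27A4 had a half-life of 1176 and 1155 min in mock cells and 716 and 1307 min in siRNA, with siRNA columns on opposite sides of both mock columns as deposited (-0.46, adjusted p = 0.125). It was called without siRNA column 2 (-0.68, adjusted p = 0.0399). SLC27A2 had the largest half-life increase of that list, 0.24 (adjusted p = 0.157). Of 13 ion transporters 4 were tested, none passed in total RNA, and SLC4A2 and SLC12A9 fell in flow-through RNA (-0.27 and -0.54). SLC12A2, the sodium, potassium and chloride cotransporter, had a half-life of 1293 and 1277 min in mock cells and 1372 and 1782 min in siRNA (adjusted p = 0.626). SLC6A8, the creatine carrier, fell in total RNA from 24.7 and 30.5 to 19.2 and 20.02, 1.41-fold lower (adjusted p = 0.00158), in labelled RNA (-0.38) and in flow-through RNA (-0.76).

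The 6 genes named after a carrier without being one passed in neither half-life nor total RNA. SLC9A3R1 and SLC9A3R2, scaffold proteins that hold transporters at the membrane, had opposite half-life estimates, -0.39 (1028 and 1017 min in mock, 841 and 954 min in siRNA, adjusted p = 0.101) and 0.34 (1213 and 1156 min in mock, 1449 and 2027 min in siRNA, adjusted p = 0.11). SLC4A1AP, an anion exchanger adaptor protein, was 1 of the 2 SLC rows with more labelled RNA, 4.13 and 4.09 in mock against 6.45 and 6.46 in siRNA (0.41). SLC7A5P1 fell in labelled RNA (-0.30). It is a pseudogene of SLC7A5, and reads of the 2 may have been shared by the authors' counting. SLC2A4RG, a transcription factor, fell in flow-through RNA (-0.21). SLC7A6OS passed in no measure, with a half-life of 362 and 338 min in mock cells and 347 and 384 min in siRNA.

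The effect of siRNA on labelled RNA was also compared directly with that on flow-through RNA. The difference, labelled minus flow-through, was negative in 2 SLC genes (2.08%) and positive in 5 (5.21%), against 4.47% and 5.92% of all genes tested. SLC38A2 and SLC39A6 were the 2 on the negative side, -0.46 (adjusted p = 0.0081) and -0.42 (adjusted p = 0.02). SLC35B2, SLC35F1, SLC25A4, SLC25A10 and SLC6A8 were on the positive side, from 0.71 for SLC35B2 (adjusted p = 0.00156) to 0.38 for SLC6A8 (adjusted p = 0.032). In these 5 the fall in flow-through RNA exceeded any fall in labelled RNA. The half-lives are made from the same fractions, so the 4 half-life calls among the 5 are not a separate line of evidence. SLC30A1 fell in both fractions, as did SLC6A8. The difference of 0.43 for SLC30A1 did not pass (adjusted p = 0.0733), though it was larger than the 0.38 of SLC6A8.

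**Figure D4:**
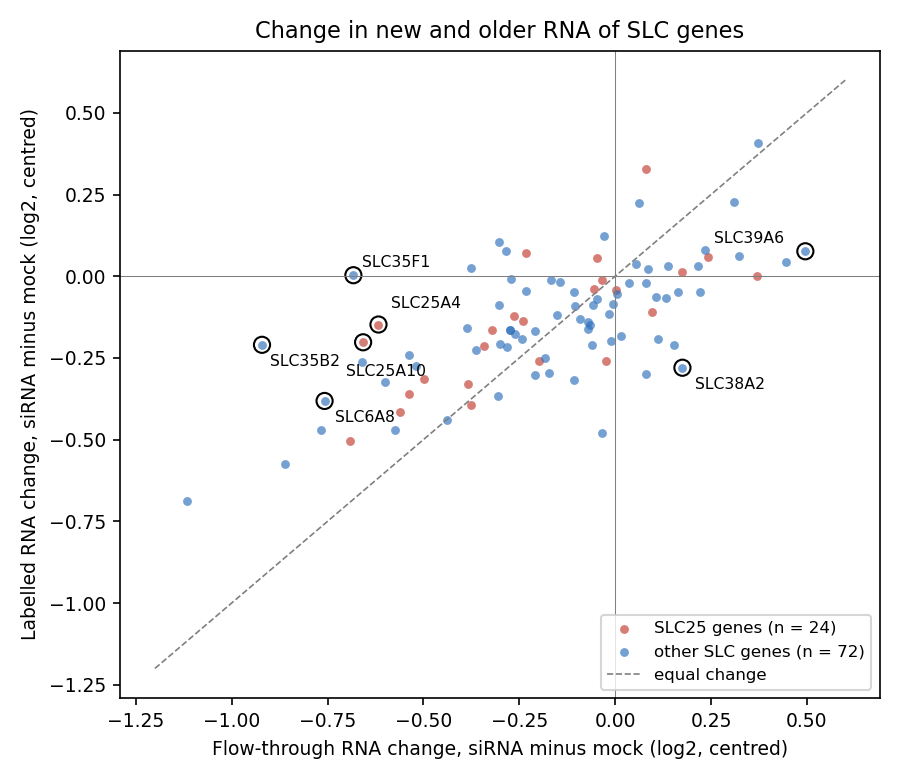
Change in labelled RNA (vertical) against change in flow-through RNA (horizontal) after MOV10 siRNA, log2 and centred on the median gene, for 24 SLC25 genes (red) and 72 other SLC genes (blue); rings mark the 7 genes whose 2 changes differed in the test of the difference, and the dashed line marks equal change. SLC35B2 and SLC35F1 lie far left of the line with flow-through changes of -0.92 and -0.68, and SLC38A2 lies to the right of it.

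Flow-through changes moved with the GC content of the coding sequence, among SLC genes and among all genes. The median coding GC content was 55.5% for the SLC25 genes tested, 52.9% for the other SLC genes and 51.9% for all genes. The Spearman correlation between flow-through change and coding GC was -0.42 over 94 SLC genes and -0.46 over 5675 genes, as a description across genes of the same libraries. Split at the median of all genes, 32 of the 51 GC-rich SLC genes fell in flow-through RNA (62.7%) and 3 rose (5.88%), against 39.2% and 17.3% of GC-rich genes as a whole. Of the 43 GC-poor SLC genes 11 fell (25.6%) and 10 rose (23.3%), against 14.9% and 46.4%. By share, more SLC genes fell and fewer rose in flow-through RNA than among all genes on both sides of that split. In total RNA, 29.4% of GC-rich SLC genes fell and 11.8% rose, against 17.8% and 6.48% of all GC-rich genes. Of GC-poor SLC genes 11.6% fell and 27.9% rose in total RNA, against 11% and 19.6%. GC content was not matched within each side. What part it has in the flow-through or total RNA calls was not tested. The 4 genes with shorter half-lives lay above that median, with coding GC of 52.2% (SLC35F1), 55.1% (SLC25A4), 58.1% (SLC35B2) and 64.4% (SLC25A10). Over all genes the share with a shorter half-life was 4.44% of GC-rich and 4.41% of GC-poor genes. The share with a longer one was 1.02% and 2.57%. Half-life change and coding GC correlated at -0.35 (Spearman) over 5675 genes and at -0.37 over 94 SLC genes.

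**Figure D5:**
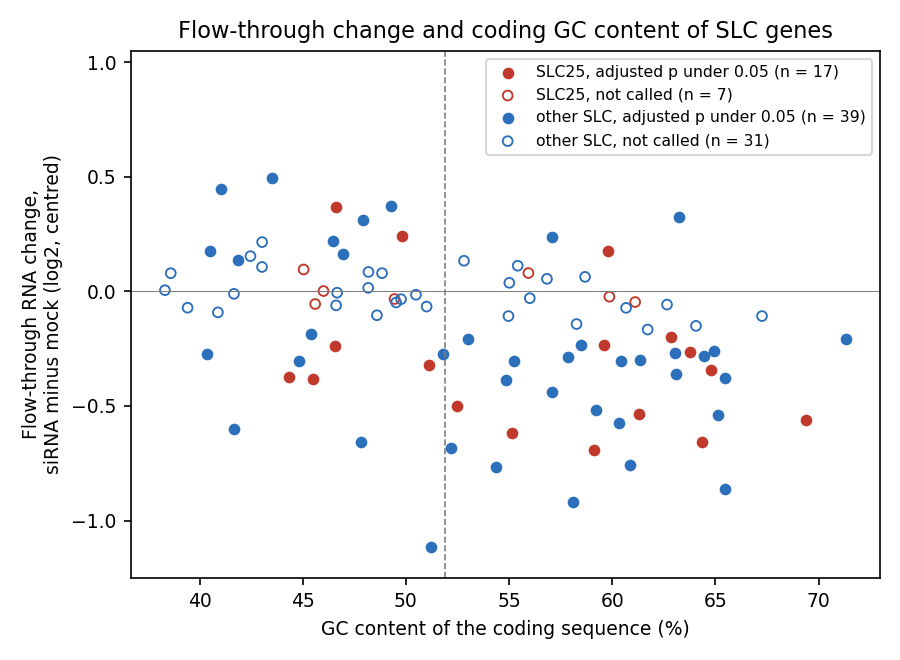
Flow-through RNA change (log2, centred) against the GC content of the coding sequence for 94 SLC genes with an annotated coding sequence; filled points passed the threshold and open points did not, red is SLC25 and blue the other families, and the dashed line is the median coding GC of all genes, 51.9%. Filled points below 0 gather to the right of the line.

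ABC and TMEM genes, both encoding membrane proteins, give the background for these shares. Of 13 tested ABC transporters, pumps driven by ATP, 3 fell (23.1%) and 4 rose (30.8%) in flow-through RNA, near the shares of all genes. Of 72 genes of the TMEM series, membrane proteins of mixed function chosen after the values were seen, 29 fell (40.3%) and 10 rose (13.9%), the same counts as in the 72 SLC genes outside SLC25. The TMEM genes also had 18 lower (25%) and 1 higher (1.39%) in labelled RNA, against 11.5% and 9.88% of all genes tested. A downward share of flow-through RNA was therefore not shown to be particular to solute carriers.

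Among proteins that work with the carriers, 1 passed in half-life, where 4.27% of all genes tested were shorter and 1.88% longer. Of 9 proteins of the TIM22 pathway, which inserts SLC25 carriers into the inner membrane, none passed in half-life or total RNA. In total RNA 14.3% of all genes tested fell and 12.9% rose. In flow-through RNA 3 of the 9 fell (33.3%) and 4 rose (44.4%), against 26.8% and 31.7% of all genes tested. Of 3 mitochondrial carrier proteins not named SLC25, MTCH2, an outer-membrane insertase, rose in total RNA from 23.1 and 24.4 to 27.7 and 26.5. Of 6 tested partners of SLC carriers, NPTN, a glycoprotein that accompanies SLC16 carriers to the surface, had a longer half-life: 1465 and 1539.7 min in mock cells and 2203 and 2911 min in siRNA (0.56, adjusted p = 0.0267). Its total RNA rose from 40.3 and 44.5 to 65.9 and 68.8, 1.59-fold higher. BSG, the other SLC16 partner in the list, was level in total RNA (310 and 347 in mock, 346 and 334 in siRNA) and in half-life (adjusted p = 0.708). BSG fell in flow-through RNA (-0.15, adjusted p = 0.00793). STK39, another of the 6 partners, fell in total RNA from 11.6 and 10.7 to 9.21 and 8.25 (adjusted p = 0.0256). It fell in flow-through RNA as well (-0.30, adjusted p = 0.00668). Of the 6 partners, 1 fell (16.7%) and 1 rose (16.7%) in total RNA.

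The 34 SLC genes below the floor had mean total RNA from 1.21 to 7.43 and mean mock half-lives from 157 to 1823 min, with a median of 604 min. Among them were all SLC2 carriers in the table and 6 SLC25 genes. SLC2A3, a glucose carrier of high affinity, had a half-life of 182 and 224 min in mock cells and 443 and 649 min in siRNA, with total RNA of 4.02 and 4.01 against 7.80 and 7.06. SLC4A4, a sodium bicarbonate cotransporter, had a half-life of 413 and 395 min in mock cells and 659 and 1026 min in siRNA, with total RNA of 1.36 and 1.30 against 2.69 and 2.44. With no floor these were the only 2 SLC genes with a longer half-life (1.23, adjusted p = 0.0127, and 0.85, adjusted p = 0.0256). Values this close to the lowest value in the table, 1.00, are the least precise, and both genes were singled out after their values were seen.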

How the data were processed

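Poly(A)+ RNA of total, 4sU-labelled and flow-through fractions of mock and MOV10 siRNA HEK293 cells was sequenced, and reads were aligned with TopHat2 2.06 to hg18, per the submitters' processing notes. The authors deposited 12 columns of a normalised expression signal per gene, whose unit and tool are not given in the sources used here. Deposited half-lives, the other unit, were computed by the authors by a published method, per the labels' protocols. Their unit is not named and was read as minutes, because half-lives recomputed from the 3 fractions by first-order decay over 60 min had medians of 581, 603, 567 and 531 in mock 1, mock 2, siRNA 1 and siRNA 2, against 657, 713, 668 and 900 deposited. Pearson correlations were 0.968 to 0.983 over genes (log2). The medians were furthest apart in siRNA column 2.

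Groups come from the labels and replicates from the table header. The test took genes whose mean total RNA reached 5 in mock and in siRNA. Values were log2 transformed (pseudocount 1 for RNA), centred on the median gene of each column and compared with limma 3.58.1 (R 4.3.3; mean-variance trend, no block), 2 against 2 columns, with Benjamini-Hochberg adjustment over 6064 genes at 0.05. A model with an interaction term compared labelled with flow-through RNA. It did not pair the labelled and flow-through columns of the same replicate number, and it was run in 1 setting only. The procedure was tested on simulated data. Alternatives left out each column, added a replicate block, changed the floor, centring, trend and pseudocount, used recomputed half-lives and removed genes that are not carriers. Coding sequences and 3′ UTRs came from GENCODE v29 (transcript with the longest coding sequence), matched by symbol for 94 of 96 SLC genes and 5675 of 6064 genes (93.6%). The build differs from that of the alignment, so no coordinates are given.

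The genes named are those called in half-life or (up to 10 in each direction) in total RNA, the 3 longest and 3 shortest mock half-lives and 3 highest total RNA values inside and outside SLC25, the largest half-life increase and decrease of each substrate list, SLC25A3 to SLC25A6, and the genes that are not carriers. A gene that this rule names is not reported here. Any other gene was named after its values were seen. The members and lists were chosen with earlier results of these data known.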

Additional observations from a re-analysis of the deposited data

Results flagged for a closer look

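In 7 SLC genes the effect of MOV10 siRNA on labelled RNA differed from its effect on flow-through RNA in the test of that difference itself (limma, interaction of condition and fraction, log2 units, labelled minus flow-through). The difference was -0.46 for SLC38A2, the neutral amino acid carrier whose labelled RNA fell and whose flow-through RNA rose, and -0.42 for the zinc importer SLC39A6. It was 0.38 for the creatine carrier SLC6A8, 0.46 for the dicarboxylate carrier SLC25A10 and 0.47 for the ADP/ATP carrier SLC25A4. It was 0.69 for SLC35F1 and 0.71 for the Golgi carrier SLC35B2. By share, 2.08% of SLC genes were negative and 5.21% positive, against 4.47% and 5.92% of all genes tested. The count therefore says nothing about SLC genes as a set. SLC25A10, SLC25A4, SLC35F1 and SLC35B2 were also called in half-life, which is made from the same fractions.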

How the results depend on the processing

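Counts of SLC genes depended on the number of columns and genes tested, and medians mostly did not change sign. Leaving out 1 column at a time gave 1 to 4 genes with shorter half-lives (4 with all columns), 0 to 1 with longer half-lives (0), 10 to 24 with lower total RNA (20), 9 to 19 with higher total RNA (18), 11 to 21 with lower labelled RNA (17), 1 to 2 with higher labelled RNA (2) and 8 to 10 with higher flow-through RNA (13). Without mock column 2 labelled RNA was lower in 11, and without mock column 1 flow-through RNA was higher in 8. The SLC25 median half-life change ranged from -0.093 to -0.037 (-0.08 with all columns) and its median total RNA change from -0.068 to -0.0199 (-0.03 with all columns). A floor of 20, which tests fewer genes, gave 0 shorter and 2 longer half-lives, 5 lower and 6 higher in total RNA, 9 and 1 in labelled RNA and 19 and 4 in flow-through RNA. With no floor, 2 half-lives were longer and 20 genes were higher in flow-through RNA, the median half-life change was -0.048 for SLC25 and 0.0076 for the others, and the SLC25 median total RNA change was 0.0057. With no centring, no half-life was called shorter, labelled RNA was lower in 9 and higher in 4, and the median half-life changes were 0.12 and 0.17. With recomputed half-lives 1 gene was longer, and the medians were -0.11 and 0.0063. Without genes that are not carriers 1 gene was higher in labelled RNA. Without genes that hold TACTGCA, a setting chosen after seeing the data as was the GC split, the median half-life change of the others was 0.0014. Mean mock half-life medians were 865 min (SLC25) and 869.7 min (others), 786 and 657 min recomputed, 784 and 782 min with no floor, and 1056 and 853 min with a floor of 20. With the replicate number as a block, 2 half-lives were shorter and SLC25A4 (adjusted p = 0.0653) and SLC25A10 (0.101) were lost. Deviations of same-numbered columns correlated at -0.07 (half-life), 0.05 (total RNA), -0.04 (labelled) and 0.11 (flow-through). With 2 columns per condition, such values cannot show whether same-numbered columns were handled together. The cause of these shifts was not tested, apart from the fewer genes or columns where a setting removes them. For single genes, 811 values kept their direction and side of the threshold or stayed within 1 SD, 45 lost and 11 gained a call, and 41 moved further. The sign changed in 37 of these 908 values, 11 of them with no centring, and in none of the called ones. The depth is unknown, so its limit cannot be stated.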
